A study of Mus musculus with 13 samples.

Results

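The 39 Hox genes of the mouse were followed in cultures of neonatal dermal fibroblasts, as all genes whose symbol is Hoxa, Hoxb, Hoxc or Hoxd followed by a number, out of 25655 genes in each table. RNA sequencing had been carried out on 13 untreated primary cultures, each from the dermis of a separate newborn mouse, to ask whether a mutation of Fbn1, the gene of the microfibril protein fibrillin-1, alters fibroblasts in themselves. In set 1 were W1 to W4, 4 cultures of wild-type (WT) mice, and M1 to M4, 4 cultures homozygous for the mutant allele (Fbn1 G234D/G234D). Set 2 comprised W5 and W6, 2 WT cultures, and 3 G234D/G234D cultures, M5 to M7. Within set 1 the titles carry lower numbers for W1, W2, M1 and M2 and higher numbers for W3, W4, M3 and M4, and no label says what the numbers stand for. The strain, the body region of the skin, the passage and the dates of culture are not in the labels, and the cells are those that grew out of dermis, not a sorted or cloned line. Levels are transcripts per 1000000 (TPM), in which a gene's reads are divided by its length and scaled to a fixed total per library, so that levels can be set side by side between genes.

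Hox genes encode homeodomain transcription factors that give cells their position along the body axis and along the limbs. They lie in clusters in which the order of the genes follows the order in which they are used, from the 3′ genes with low paralogue numbers, used anteriorly and early, to the 5′ genes with high numbers, used posteriorly, distally and late. Dermal fibroblasts are known to keep the Hox pattern of the site they came from in culture, and the 5′ genes of the Hoxa and Hoxd clusters are known from limb development as genes of the distal limb.

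Markers went with the labelled cell type. All 12 fibroblast markers listed, among them Col1a1, Col1a2, Pdgfra and Vim, stood at 1 TPM or more in every culture, with a summed level of 23484 to 34745 TPM. M1 and M2 stood apart in markers of other cells. Their 9 Schwann cell and melanocyte markers summed to 127 and 130.1 TPM, against 22.4 to 46.1 TPM in the other 11 cultures. Their 12 skeletal muscle markers summed to 348 and 293 TPM, against 66.3 to 161 TPM, with Myf5, Pax7 and Ckm under 1 TPM in every culture. Their 8 macrophage markers summed to 48.8 and 67.7 TPM, within or above the 11.2 to 54.3 TPM of the others, with Ptprc under 1 TPM throughout. Results that rest on M1 and M2 are therefore given without them as well. Because each library is bulk RNA, fewer cells with a given Hox gene and less of its RNA per cell cannot be told apart.

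A gene was called on at 1 TPM or more in all 13 libraries, off where it stayed under 1 TPM in all, and variable otherwise. By this measure 26 of the 39 genes were on, 10 were variable and 3 were off. In the Hoxb, Hoxc and Hoxd clusters the on genes formed an unbroken run, with the variable and off genes at the ends. This run went from Hoxb2 to Hoxb9 in the Hoxb cluster, from Hoxc4 to Hoxc11 in the Hoxc cluster, and over Hoxd3, Hoxd4, Hoxd8 and Hoxd9 in the Hoxd cluster. In the Hoxa cluster the on genes included Hoxa2, Hoxa5, Hoxa7, Hoxa9, Hoxa10 and Hoxa11, and the variable genes Hoxa3, Hoxa4 and Hoxa6 lay among them. At a stricter limit of 5 TPM, 14 genes were on.

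**Figure D1:**
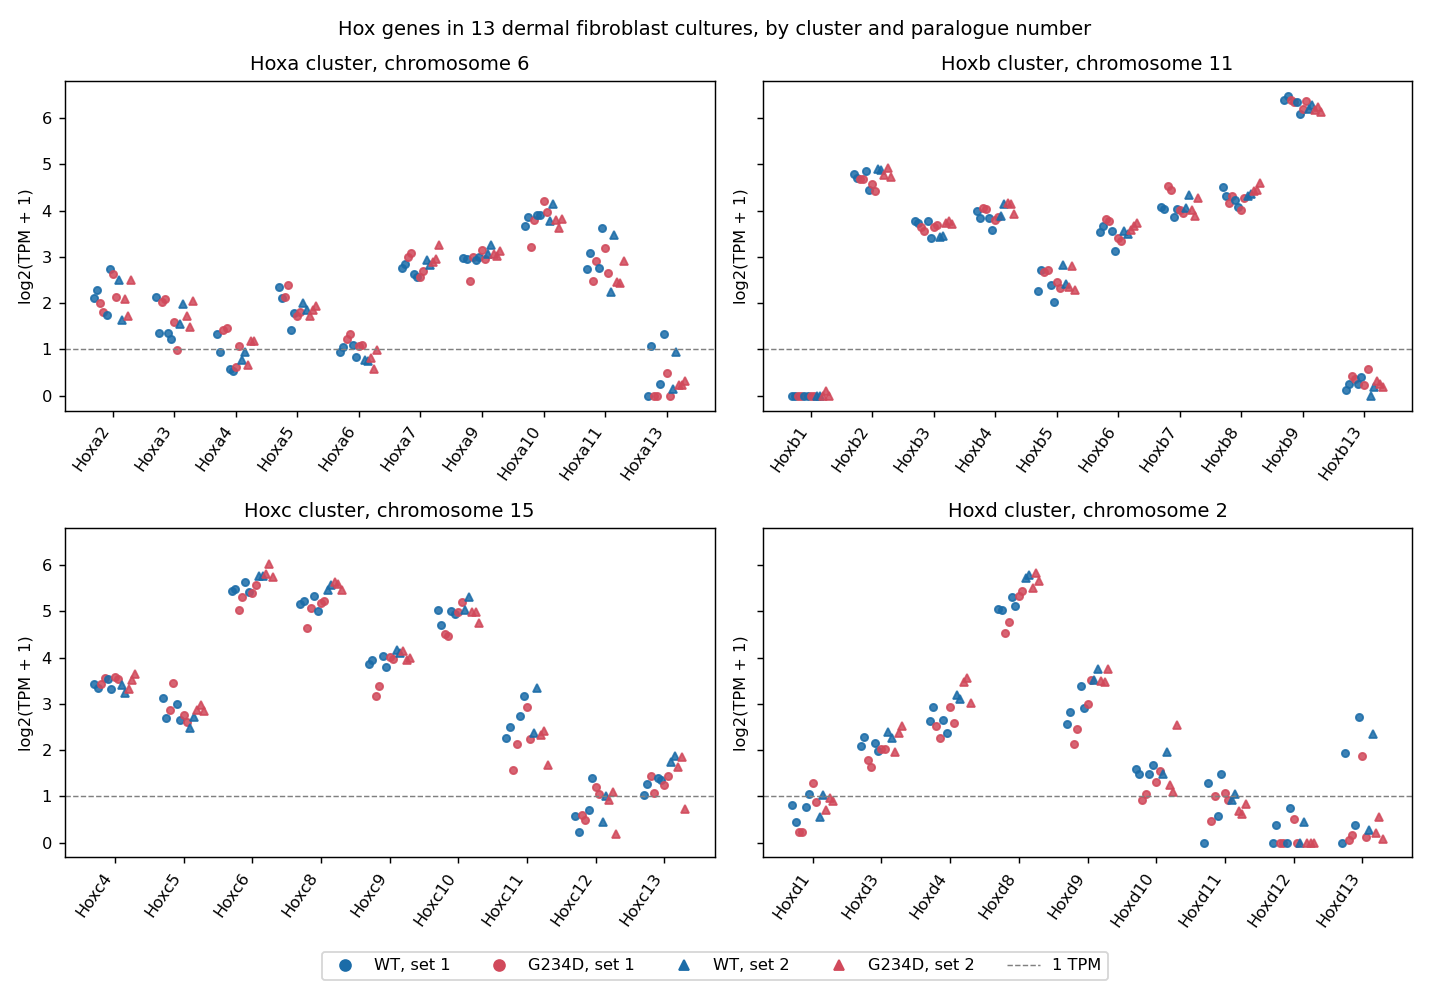
Levels of Hox genes in each of the 13 cultures, as log2(TPM + 1) on the vertical axis, with 1 panel per cluster and genes ordered by paralogue number; each point is 1 culture, blue for WT and red for G234D/G234D, circles for set 1 and triangles for set 2, and the dashed line marks 1 TPM. Hoxb2 to Hoxb9 and Hoxc4 to Hoxc11 lie above the line in every culture, while Hoxb1, Hoxb13 and Hoxd12 lie below it in every culture.

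All Hox proteins bind DNA through the homeodomain, encoded by the homeobox, 180 bases long in all 39 genes. It is shown for the gene with the highest mean level in each cluster and for Hoxd13, the most 5′ gene of the Hoxd cluster, whose level differed most sharply between cultures. The sequences are the coding bases of GENCODE transcripts (release M21, mm10), 5′ to 3′ on the gene's own strand, and capitals mark bases 142 to 165, which encode the core of the helix that lies in the major groove of DNA.
Hoxa10: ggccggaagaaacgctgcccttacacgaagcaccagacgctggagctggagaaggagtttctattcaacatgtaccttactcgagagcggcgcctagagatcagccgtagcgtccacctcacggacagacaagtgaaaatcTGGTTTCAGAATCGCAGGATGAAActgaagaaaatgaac
Hoxb9: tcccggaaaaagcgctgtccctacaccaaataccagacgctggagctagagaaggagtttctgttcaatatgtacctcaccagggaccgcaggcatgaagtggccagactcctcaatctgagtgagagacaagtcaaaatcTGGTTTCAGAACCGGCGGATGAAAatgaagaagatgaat
Hoxc6: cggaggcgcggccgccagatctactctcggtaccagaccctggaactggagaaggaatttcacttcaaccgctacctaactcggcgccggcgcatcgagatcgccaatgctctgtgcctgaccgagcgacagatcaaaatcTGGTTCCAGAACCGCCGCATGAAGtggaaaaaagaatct
Hoxd8: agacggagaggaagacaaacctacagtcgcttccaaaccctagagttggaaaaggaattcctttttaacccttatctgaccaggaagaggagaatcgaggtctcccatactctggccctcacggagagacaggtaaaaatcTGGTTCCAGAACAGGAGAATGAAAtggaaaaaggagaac
Hoxd13: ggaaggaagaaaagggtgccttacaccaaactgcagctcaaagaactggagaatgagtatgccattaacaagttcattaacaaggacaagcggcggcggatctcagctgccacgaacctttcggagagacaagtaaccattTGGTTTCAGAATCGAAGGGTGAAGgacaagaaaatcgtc
Homeoboxes of the same paralogue number in different clusters had 67.2% to 93.9% of bases in common (median 80.6%, 42 pairs), and those of different numbers had a median of 60.6% (699 pairs). Hoxc6 and Hoxd8 had 68.9% of bases in common, and Hoxd8 and Hoxd13 had 51.7%. The longest identical run between protein-coding transcripts of genes in different clusters was 52 bases, in Hoxa6 and Hoxb4. The sources used here do not say how reads that fit more than 1 gene were assigned.

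The Hoxb cluster (chromosome 11, 10 genes) held the highest level of the family. Hoxb9 (chr11:96271457-96276595, plus strand), which with its paralogues patterns the thoracic skeleton, stood at 83.2, 88.3, 80.2 and 67.2 TPM in W1 to W4, 83.0, 80.9, 72.5 and 82.0 in M1 to M4, 72.8 and 77.0 in W5 and W6, and 71.4, 74.2 and 69.8 in M5 to M7. Its 1.31-fold range over 13 cultures was the narrowest among the 26 genes that were on, and WT and mutant cultures overlapped in both sets. Hoxb2, a 3′ gene known from the hindbrain, stood at 26.8, 25.1, 28.2 and 20.8 TPM in W1 to W4, 24.9, 24.7, 22.9 and 20.5 in M1 to M4, 28.8 and 28.6 in W5 and W6, and 26.5, 29.2 and 25.4 in M5 to M7. These values lay within a 1.43-fold range in which the lowest were W4, M3 and M4 of set 1.

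Hoxb8, best known from the spinal cord and from myeloid cells, stood at 21.7, 19.0, 17.8 and 16.0 TPM in W1 to W4, 16.9, 18.9, 15.1 and 18.2 in M1 to M4, 19.0 and 19.4 in W5 and W6, and 20.5, 20.7 and 23.1 in M5 to M7. The genotypes overlapped in set 1, while in set 2 the mutant cultures lay above both WT cultures, a difference that was not called. Hoxb7 stood at 16.0, 15.5, 13.5 and 15.4 TPM in W1 to W4, 22.0, 20.8, 15.3 and 14.4 in M1 to M4, 15.6 and 19.4 in W5 and W6, and 15.2, 13.8 and 18.3 in M5 to M7. Here M1 and M2 were the highest of all cultures. The other on genes of the cluster had lower means: Hoxb4 14.5 TPM, Hoxb3 11.5 TPM, Hoxb6 10.9 TPM and Hoxb5 4.64 TPM. At the ends of the cluster, Hoxb1, the most 3′ gene, was listed at 0 in 12 of 13 cultures and at 0.0696 TPM in M6. Hoxb13, the most 5′ gene, which lies apart from the rest of its cluster and is known from the tail and the prostate, stood at 0 to 0.497 TPM.

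In the Hoxc cluster (chromosome 15, 9 genes) the levels were highest over the central genes. Hoxc6 (chr15:102998257-103011881, plus strand), a gene of the thoracic region, stood at 42.4, 44.0, 48.4 and 41.6 TPM in W1 to W4, 31.8, 38.9, 41.1 and 46.2 in M1 to M4, 53.0 and 53.2 in W5 and W6, and 55.3, 63.9 and 52.9 in M5 to M7. All 5 cultures of set 2 lay above all 8 of set 1, and M1 was the lowest. Hoxc8, its 5′ neighbour, stood at 34.8, 36.4, 39.0 and 31.3 TPM in W1 to W4, 24.0, 32.6, 35.4 and 36.2 in M1 to M4, 43.4 and 46.5 in W5 and W6, and 49.0, 46.9 and 43.4 in M5 to M7. The order was the same, with set 2 above set 1 and M1 lowest.

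Hoxc10, a gene of the lumbar region and the hindlimb, stood at 31.7, 24.9, 31.4 and 29.7 TPM in W1 to W4, 21.9, 21.2, 30.6 and 36.1 in M1 to M4, 31.6 and 38.5 in W5 and W6, and 30.6, 30.8 and 25.8 in M5 to M7. M1 and M2 were the lowest 2 cultures and W6 the highest, and the WT and mutant groups of set 1 overlapped. Hoxc9 stood at 13.5, 14.5, 15.3 and 12.9 TPM in W1 to W4, 8.06, 9.51, 15.1 and 14.6 in M1 to M4, 16.8 and 16.1 in W5 and W6, and 16.6, 14.5 and 14.8 in M5 to M7. M1 and M2 were again the lowest, and the other 11 cultures lay between 12.9 and 16.8 TPM. The most 5′ gene on in every culture was Hoxc11, which was at 3.78, 4.68, 5.63 and 7.98 TPM in W1 to W4, 1.96, 3.35, 6.59 and 3.74 in M1 to M4, 4.19 and 9.07 in W5 and W6, and 4.04, 4.31 and 2.21 in M5 to M7. W6, W4 and M3 were the highest and M1 and M7 the lowest. Hoxc4 and Hoxc5 had means of 9.96 and 6.31 TPM. Hoxc12 and Hoxc13, the latter known from hair and nails, ranged over 0.139 to 1.64 TPM and 0.643 to 2.66 TPM. Hoxc13 was at 1 TPM or more in 12 of 13 cultures, with M7 as the exception.

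The Hoxd cluster (chromosome 2, 9 genes) was led by a single gene. Hoxd8 (chr2:74704615-74707933, plus strand), a gene expressed in the trunk and the proximal limb, stood at 32.1, 31.7, 38.6 and 33.8 TPM in W1 to W4, 22.0, 26.2, 39.5 and 42.4 in M1 to M4, 51.9 and 54.2 in W5 and W6, and 44.4, 55.7 and 49.2 in M5 to M7. Set 2 lay above set 1 without overlap, and M1 and M2 were the lowest of set 1. Hoxd9 stood at 4.87, 6.07, 9.38 and 6.48 TPM in W1 to W4, 3.41, 4.47, 6.97 and 10.5 in M1 to M4, 10.5 and 12.5 in W5 and W6, and 10.3, 10.1 and 12.5 in M5 to M7. Within set 1 the cultures with higher title numbers (W3, W4, M3 and M4) all lay above those with lower numbers.

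Hoxd4 stood at 5.14, 6.66, 5.30 and 4.20 TPM in W1 to W4, 4.72, 3.77, 6.57 and 4.97 in M1 to M4, 8.12 and 7.62 in W5 and W6, and 10.1, 10.8 and 7.13 in M5 to M7. All 5 cultures of set 2 were above all 8 of set 1. Hoxd3 stood at 3.23, 3.83, 3.44 and 2.92 TPM in W1 to W4, 2.46, 2.10, 3.06 and 3.05 in M1 to M4, 4.23 and 3.80 in W5 and W6, and 2.89, 4.19 and 4.73 in M5 to M7. Its sets overlapped, and M1 and M2 were the lowest cultures. Hoxd3 and Hoxd4 share 388 bases of annotated exon on the same strand, so their levels are not independent of how shared reads were counted. Towards the 5′ end Hoxd10 had a mean of 1.93 TPM and Hoxd11 of 0.845 TPM, and Hoxd1 at the 3′ end had 0.725 TPM.

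The Hoxa cluster (chromosome 6, 11 genes, read on the minus strand) had the lowest levels among its leading genes. Hoxa10 (chr6:52231197-52240854), a gene of the lumbar spine, the limb and the reproductive tract, stood at 11.8, 13.7, 13.97 and 14.1 TPM in W1 to W4, 8.34, 12.9, 17.6 and 14.7 in M1 to M4, 12.8 and 16.7 in W5 and W6, and 12.99, 11.3 and 13.1 in M5 to M7. M1 was the lowest and M3 the highest, and all groups overlapped. Hoxa9 stood at 6.86, 6.74, 6.65 and 6.98 TPM in W1 to W4, 4.61, 7.04, 7.88 and 6.79 in M1 to M4, 7.33 and 8.59 in W5 and W6, and 7.31, 7.16 and 7.80 in M5 to M7. The M1 culture was the only one under 6.65 TPM. Hoxa7 stood at 5.74, 6.20, 5.21 and 4.88 TPM in W1 to W4, 6.96, 7.43, 4.92 and 5.49 in M1 to M4, 6.67 and 6.11 in W5 and W6, and 6.36, 6.77 and 8.55 in M5 to M7. In set 1 its highest cultures were M1 and M2.

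Hoxa11, the most 5′ gene of the cluster that was on throughout and a gene of the forearm and shank, stood at 5.66, 7.53, 5.79 and 11.3 TPM in W1 to W4, 4.58, 6.56, 8.15 and 5.32 in M1 to M4, 3.76 and 10.1 in W5 and W6, and 4.49, 4.38 and 6.48 in M5 to M7. W4, W6, M3 and W2 were the highest 4 cultures. The genes Hoxa2 to Hoxa6 were all low, with means from 0.9750 TPM for Hoxa6 to 3.56 TPM for Hoxa2. Hoxa4 and Hoxa6 were each at 1 TPM or more in 6 of 13 cultures, and Hoxa3 in 12. Hoxa3 encloses the intervals of Hoxa4, Hoxa5 and Hoxa6 in the annotation. Over all clusters 11 genes overlap another Hox gene on the same strand and 14 have an annotated gene on the opposite strand. Although the library kit marks strand, the sources used here do not say whether the counting used it, so levels of these genes are uncertain to that extent.

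Summed over the 39 genes, the Hox family made up 373 to 509 TPM (median 438). The median share of each cluster in this sum was 38.5% for Hoxb, 35.0% for Hoxc, 14.8% for Hoxd and 10.8% for Hoxa. By paralogue number, groups 1 to 3 held 11.2% of the sum, groups 4 to 8 held 49.6% and groups 9 to 13 held 38.4% (medians). Group 9 with 106 TPM and group 8 with 95.4 TPM were the highest of the 13 groups. Relative to its level, the sum of the Hoxb genes varied least, from 151 to 193 TPM, and that of the Hoxd genes most, from 34.1 TPM in M1 to 87.6 TPM in W6. In the WT groups the Hoxd sum was 55.4 ± 5.34 TPM in set 1 (SD, n = 4) and 82.8 ± 6.73 TPM in set 2 (SD, n = 2). In the G234D/G234D groups it was 50.2 ± 16.0 TPM (SD, n = 4) and 78.2 ± 6.91 TPM (SD, n = 3).

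**Figure D2:**
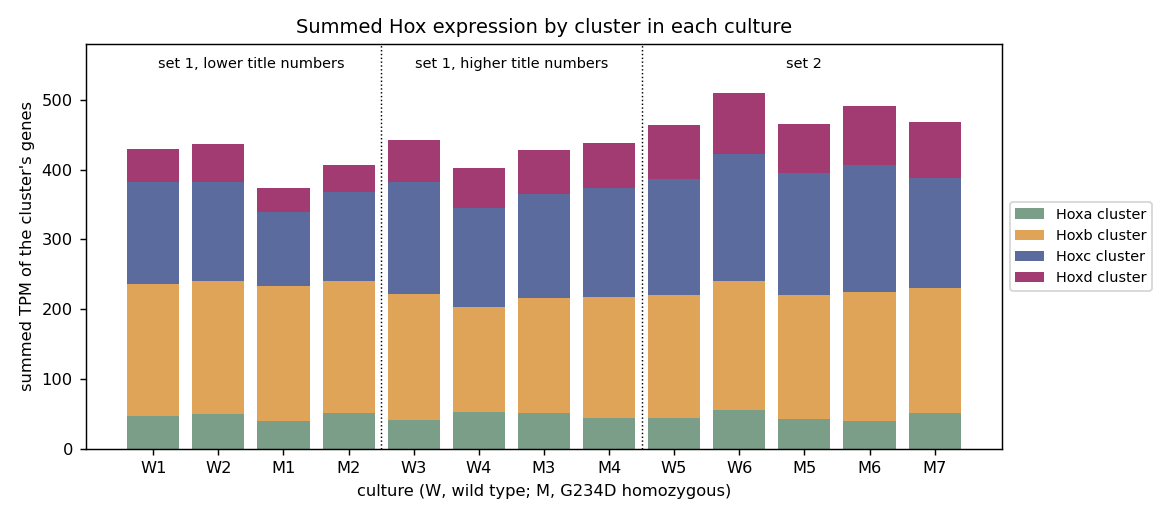
Summed TPM of the genes of each Hox cluster (stacked bars, vertical axis in TPM) in each of the 13 cultures, with dotted lines between the cultures of set 1 with lower title numbers, those of set 1 with higher numbers and set 2. The total runs from 373 TPM in M1 to 509 TPM in W6, and the uppermost segment, Hoxd, is smallest in M1 and M2.

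The profile of levels over the 39 genes was alike in all cultures. Pearson's r of log2(TPM + 1) between pairs of libraries, taken over genes that share each library's scaling and given as a description only, ran from 0.895 to 0.993 over 78 pairs, with a median of 0.968. The median was 0.966 for pairs of 1 group, 0.968 for pairs of the other genotype in the same set and 0.969 for pairs in different sets. M1 with W4 was the least alike.

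Single Hox genes nevertheless varied more than most genes. After set and genotype were fitted, the residual SD on the log2(TPM + 1) scale had a median of 0.243 over the 31 Hox genes tested and of 0.112 over all 11942 genes tested. Hoxb9 and Hoxc4 were the steadiest, each at 0.108, close to the middle of all genes. Hoxc11, Hoxd10 and Hoxa11 varied most, at 0.47, 0.41 and 0.41, above those of at least 96.2% of all genes. The genes compared were not matched for level. Differences by title number and those of M1 and M2 also remain in this SD. The contrast is therefore not read as a trait of Hox genes.

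Several 5′ genes of the Hoxd and Hoxa clusters were high in the same few cultures. Wide ranges were not confined to these genes: over all cultures Hoxc12 ranged 11.8-fold and the 3′ gene Hoxd1 8.64-fold. Hoxd13, a gene of the digits and the genital tubercle, was at 2.85 TPM in W2, 5.53 TPM in W4, 2.68 TPM in M3 and 4.08 TPM in W6. In the other 9 cultures it was listed between 0 (W1) and 0.468 TPM (M6). The 4 cultures came from both sets and both genotypes. Hoxd12 was at 0.303, 0.668, 0.430 and 0.353 TPM in W2, W4, M3 and W6, and was listed at 0 in the other 9 cultures. Hoxa13, the distal limb gene of the Hoxa cluster, was at 1.10, 1.54, 0.403 and 0.931 TPM in the same cultures and between 0 and 0.240 TPM in the others.

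The same 4 cultures were also the highest for Hoxd11 (1.46, 1.79, 1.09 and 1.07 TPM in W2, W4, M3 and W6), where the next culture, M2, came close at 1.02 TPM. With Hoxa11, 5 of the 39 Hox genes (12.8%) had these 4 cultures as their highest, against 17 of the 15562 genes listed above 0 in at least 4 libraries (0.109%). The 4 cultures were chosen by Hoxd13, which is itself counted in both shares. Hoxd12, listed at 0 in the other 9 cultures, could have had no other 4 highest. The shares are therefore a description, and no enrichment of Hox genes is drawn from them. Of 109 genes in the other lists used here, Tbx4 and Pitx1, both known as regulators of hindlimb identity, had the same 4 highest cultures. Tbx4 was at 2.53, 4.07, 2.38 and 1.93 TPM in W2, W4, M3 and W6, against at most 1.13 TPM in the others, and Pitx1 at 1.54, 3.34, 2.23 and 1.79 TPM, against at most 1.37 TPM. Looked up after these values were seen, Tbx5, a forelimb regulator, was highest in W6, M5, M6 and M7, at 6.56 to 7.32 TPM. So looked up as well, the Y-linked gene Ddx3y was at 49.997 to 61.9 TPM in M3, W1, W3, M1 and M2, at 0.0949 TPM in M4, and listed at 0 in W2, W4, W6 and the other 4 cultures of set 2.

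The 250 bases upstream of the RefSeq start of Hoxd13 and Hoxa13 are shown because these genes, on different chromosomes, were highest in the same cultures. The window of Hoxd13 is chr2:74667975-74668224 on the plus strand and that of Hoxa13 is chr6:52260881-52261130 on the minus strand (RefSeq, GRCm38.p6). Both are printed 5′ to 3′ on the gene's strand, with capitals at matches of CCAAT or TATAAA on either strand.
Hoxd13 upstream: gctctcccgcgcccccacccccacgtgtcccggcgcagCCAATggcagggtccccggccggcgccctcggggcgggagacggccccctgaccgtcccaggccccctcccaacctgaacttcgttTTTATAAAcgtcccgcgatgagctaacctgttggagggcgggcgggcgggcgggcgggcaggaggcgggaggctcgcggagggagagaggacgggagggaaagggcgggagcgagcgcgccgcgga
Hoxa13 upstream: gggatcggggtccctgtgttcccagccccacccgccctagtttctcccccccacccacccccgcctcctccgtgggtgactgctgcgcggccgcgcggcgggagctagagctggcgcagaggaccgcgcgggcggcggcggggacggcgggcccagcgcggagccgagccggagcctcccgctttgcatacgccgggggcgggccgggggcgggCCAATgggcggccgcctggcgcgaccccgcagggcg
The window of Hoxd13 held 31 CG pairs and that of Hoxa13 held 35, more than in 94.8% and 97.0% of the 32851 windows in the table, whose median was 6. CCAAT stood in both, and was found in 33.8% of all windows and in 14 of the 24 windows of 22 Hox genes that have one. The capital run in the Hoxd13 window holds TATAAA on both strands, overlapping itself. The motif was found in 12.4% of all windows and in 4 of the 24 Hox windows, and these letters are not in the Hoxa13 window.

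**Figure D3:**
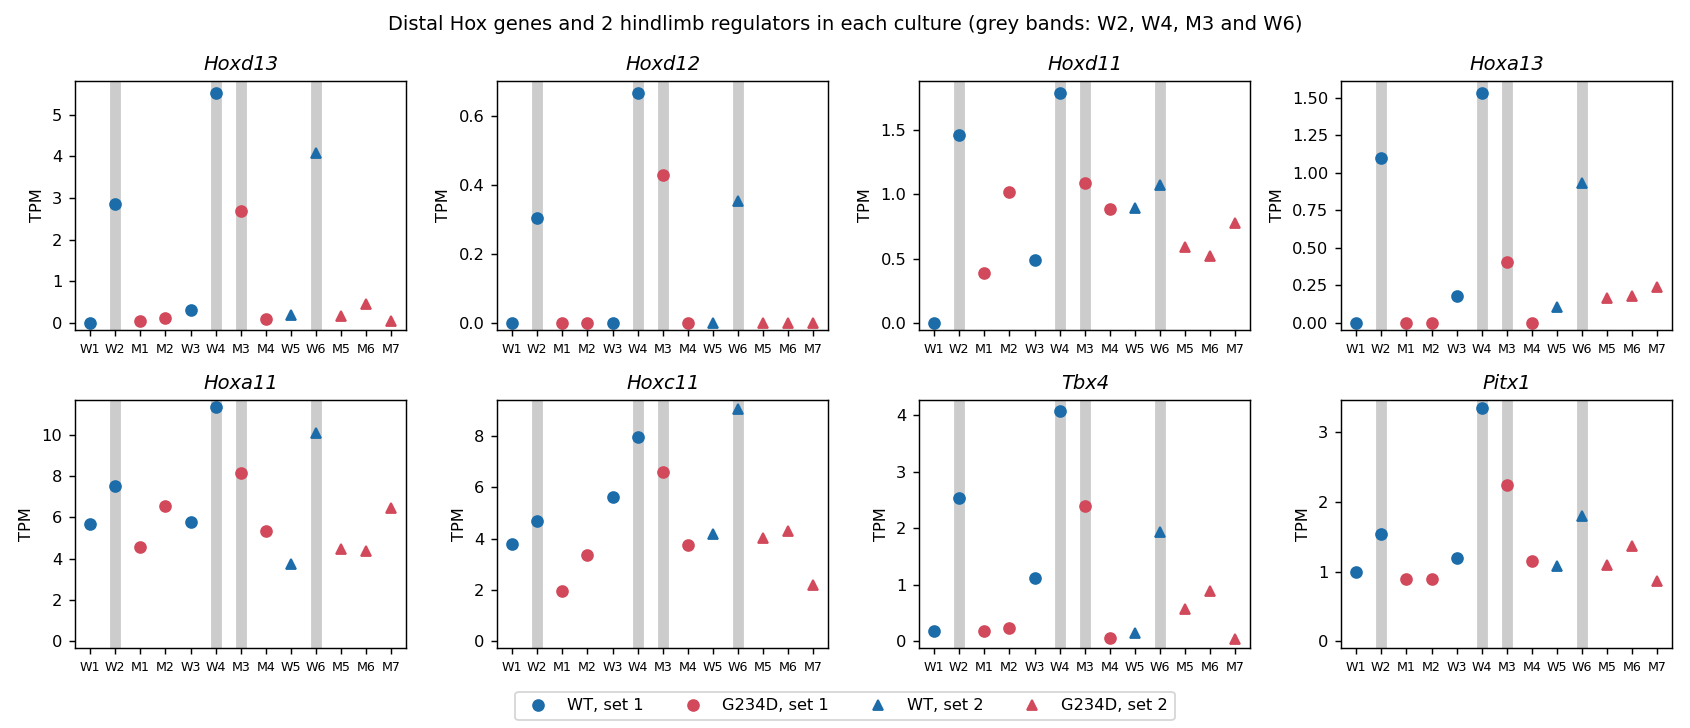
TPM (vertical axes, linear, each panel with its own scale) of 6 distal Hox genes and of Tbx4 and Pitx1 in each culture, blue for WT and red for G234D/G234D, circles for set 1 and triangles for set 2; grey bands mark W2, W4, M3 and W6. Hoxd13 is at 2.68 to 5.53 TPM in the banded cultures and at most 0.468 TPM elsewhere, whereas in Hoxc11 the W3 culture lies above W2.

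Set 2 differed from set 1 in the level of 8 Hox genes, 7 higher and 1 lower, with the central Hoxd and Hoxc genes leading. The question here was whether the Hox profile held between sets of cultures. The test was limma on log2(TPM + 1) with genotype in the model and p adjusted after Benjamini and Hochberg across the 11942 genes tested, of which 39.3% were called (17.5% higher, 21.8% lower in set 2). Of the 39 Hox genes 31 passed the filter of 1 TPM in at least 6 libraries, and the 8 called were 25.8% of these, under the share of all genes. Over all genes the median log2 difference was −0.012, and over the Hox genes it was 0.15.

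Differences below are on the log2(TPM + 1) scale. Hoxd4 rose by 0.66 (SE 0.13, adjusted p = 0.00136). Hoxd8 rose by 0.64 (SE 0.14, adjusted p = 0.0031), and Hoxd9 by 0.77 (SE 0.20, adjusted p = 0.0104). In the Hoxc cluster, Hoxc8 rose by 0.45 (SE 0.090, adjusted p = 0.00174) and Hoxc6 by 0.42 (SE 0.084, adjusted p = 0.00175). For Hoxc6, Hoxc8, Hoxd4 and Hoxd8 every culture of set 2 lay above every culture of set 1. The share of all genes that separate the sets in this way was not counted, so this is a description only. These 4 genes and Hoxd9 were called under every alternative in which they were tested. Against the cultures of set 1 with higher title numbers only, the differences of Hoxd8 and Hoxd9 were 0.39 and 0.40, and against those with lower numbers only 0.88 and 1.13. Without M1 and M2 they were 0.46 and 0.53.

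Hoxd3 rose by 0.33 (SE 0.11, adjusted p = 0.0278), and Hoxb2 by 0.20 (SE 0.069, adjusted p = 0.0343). Hoxa6, which lay between 0.499 and 1.53 TPM, fell: it stood at 0.933, 1.07, 1.13 and 0.798 TPM in W1 to W4, 1.35, 1.53, 1.11 and 1.13 in M1 to M4, 0.712 and 0.682 in W5 and W6, and 0.753, 0.499 and 0.987 in M5 to M7, a log2 difference of −0.32 (SE 0.10, adjusted p = 0.0236). The sets overlapped in these 3 genes and their calls were less stable. Hoxd3 was lost without M2, W5, M6 or M7, without M1 and M2 together and against the higher title numbers alone, with adjusted p from 0.0535 to 0.105. The call of Hoxb2 was lost without M3, M4, W5, W6, M5 or M6, with no filter on low TPM and against the lower title numbers alone (adjusted p 0.0504 to 0.0882) and that of Hoxa6 without M6 (adjusted p = 0.0644), 1 of the 11 alternatives in which it was tested. Leaving out M6 left 5 of the 8 calls. All 5 Hoxd genes tested had a positive difference, against 4 of 10 Hoxa genes. Culture, preparation and sequencing of the sets cannot be told apart. The Y-linked gene Ddx3y, given above, was listed at 0 in all 5 cultures of set 2 and stood at 49.997 TPM or more in 5 of the 8 of set 1. The summed fibroblast markers were at 31263 to 34745 TPM in set 2 and at 23484 to 29618 TPM in set 1. Most of this sum was Col1a1, Col1a2 and Col3a1, of which Col3a1 was at 3652 to 4317 TPM in set 2 and at 1676 to 3130 TPM in set 1. The markers Pdgfra, Prrx1, Vim and Twist2 overlapped between the sets. Pdgfra was highest in W3, W4, M3 and M4 and Prrx1 in W1 to W4, all of set 1. The part of these values in the difference was not tested. The summed Schwann cell, muscle and macrophage markers of M1 and M2, given above, move with set 1; their part in the difference was not tested beyond the values without them.

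Of the 23 tested genes that were not called, 3 more had an unadjusted p under 0.05, all higher in set 2 (Hoxb4, Hoxb8 and Hoxc9). With the called genes, 11 of the 31 Hox genes reached it, to be read against 5777 of the 11942 genes tested. Hoxb9, the gene with the highest level, had a log2 difference of −0.12 (SE 0.058, adjusted p = 0.12).

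**Figure D4:**
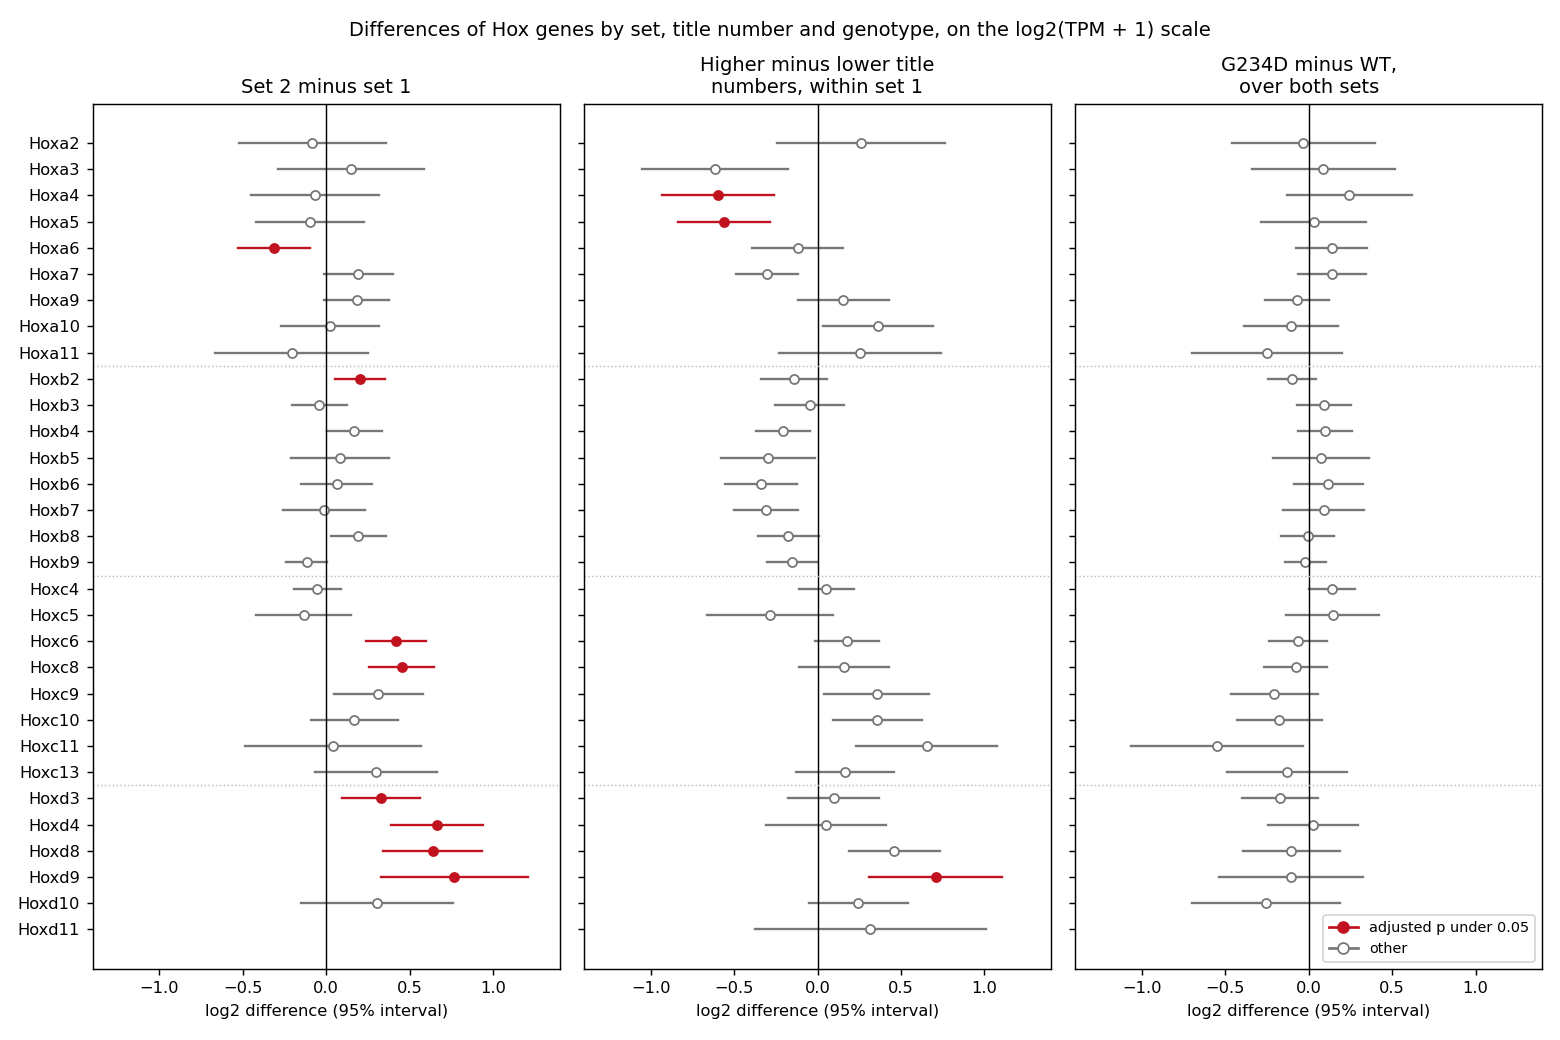
Log2 differences of Hox genes (points) with 95% intervals (lines) on the log2(TPM + 1) scale, for set 2 minus set 1, for higher minus lower title numbers within set 1 and for G234D/G234D minus WT over both sets; filled red points passed an adjusted p of 0.05 over all genes. The red points are 8, 3 and 0 in number, and in the middle panel the 8 Hoxb genes all lie left of 0 and the 6 Hoxd genes all right of it.

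Within set 1, cultures with higher title numbers had lower levels of Hoxa4 and Hoxa5 and a higher level of Hoxd9 than cultures with lower numbers. The comparison divides W3, W4, M3 and M4 from W1, W2, M1 and M2, with genotype in the model. It called 7.14% of 11905 genes (2.79% higher, 4.35% lower) and 4 of the 32 Hox genes tested, among them these 3. Hoxa5, a gene of the cervicothoracic region and the lung, stood at 4.13, 3.32, 1.69 and 2.44 TPM in W1 to W4, 3.36, 4.27, 2.32 and 2.51 in M1 to M4, 2.99 and 2.62 in W5 and W6, and 2.32, 2.63 and 2.83 in M5 to M7. All 4 higher-numbered cultures lay below all 4 lower-numbered ones, with a log2 difference of −0.56 (SE 0.12, adjusted p = 0.0326).

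Hoxa4 stood at 1.54, 0.910, 0.481 and 0.437 TPM in W1 to W4, 1.68, 1.74, 0.531 and 1.10 in M1 to M4, 0.703 and 0.935 in W5 and W6, and 0.578, 1.28 and 1.26 in M5 to M7. It overlapped between the groups and fell by 0.59 (SE 0.15, adjusted p = 0.0456). Hoxd9, given above, rose by 0.71 (SE 0.18, adjusted p = 0.0463), without overlap. How many of all genes were without overlap in this comparison was not counted. By cluster, all 8 Hoxb genes tested had negative differences (−0.34 to −0.048), as had Hoxa3 to Hoxa7. All 3 Hoxa genes of groups 9 to 13 had positive differences, as had 7 of 8 Hoxc genes and all 6 Hoxd genes. These signs were the same after quantile normalization and with a pseudocount of 0.1. An unadjusted p under 0.05 was reached by 16 of the 32 Hox genes, to be read against 3173 of the 11905 genes tested. Those with lower levels included Hoxa3, Hoxa4, Hoxa5, Hoxa7, Hoxb4, Hoxb5, Hoxb6, Hoxb7 and Hoxb9. Those with higher levels included Hoxa10, Hoxc9, Hoxc10, Hoxc11, Hoxd8 and Hoxd9.

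These calls rested on few cultures. No Hox gene was called without M1 and M2, and over all genes 15 were. Leaving out M1, M2, M3 or M4 alone also left 0 Hox calls, leaving out W1 left 1 (Hoxc10) and W3 left 1 (Hoxb6), and leaving out W2 or W4 left 4 and 5. In the WT cultures alone the mean log2 differences were −0.63 for Hoxa5, −0.59 for Hoxa4 and 0.45 for Hoxd9. In the G234D/G234D cultures they were −0.49, −0.59 and 0.96. The signs of these 3 genes were the same in both genotypes, and the 8 Hoxb genes were negative in the WT cultures alone as well. The signs differed for Hoxd4 (−0.26 in WT and 0.36 in the mutant) and Hoxd3 (−0.12 and 0.31). They also differed for Hoxc8 (−0.024 and 0.34) and Hoxb3 (−0.17 and 0.074). The shared sign of the Hoxd genes, and that of the Hoxb genes, therefore did not hold in both genotypes. These differences between genotypes were not tested. The sum of the 8 pericyte and smooth muscle markers separated the compared cultures, at 6339 to 6997 TPM at lower numbers and 4493 to 5482 TPM at higher numbers. Most of this sum was Acta2, at 6180 to 6830 TPM against 4422 to 5373 TPM. The smooth muscle myosin gene Myh11, at 50.3 to 77.6 TPM against 14.1 to 38.0 TPM, Rgs5 and Notch3 separated the cultures too. Kcnj8, Cspg4, Des and Abcc9 overlapped, and Kcnj8 was higher at higher numbers within each genotype. The part of these markers in the differences was not tested. The marker sums of M1 and M2 move with this comparison too, and their part in it was not tested beyond the values without them.

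Between the genotypes no Hox gene was called, in either set or over both. Over both sets limma called 0 of 11942 genes (0%), with 769 at an unadjusted p under 0.05, and 0 of the 31 Hox genes, with 2 at an unadjusted p under 0.05. Of the Hox genes 13 had a positive and 18 a negative difference, with a median of −0.033 against 0.011 over all genes. The 95% intervals lay within 1.5-fold in either direction for 27 of the 31, so larger differences fall outside them for most Hox genes.

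Hoxc11, whose values are given above, had the smallest unadjusted p, with a log2 difference of −0.55 (SE 0.24, adjusted p = 0.765). Its mean difference was −0.54 among lower title numbers, −0.36 among higher title numbers and −0.71 in set 2. Without M1 and M2 the fitted difference was −0.38. Hoxc4 was the other gene, at 0.14 (SE 0.063, adjusted p = 0.765). The signs were the same in all 3 parts of the design for 11 of the 31 genes, positive for Hoxa4, Hoxa6, Hoxa7, Hoxb4, Hoxb6 and Hoxc4 and negative for Hoxa11, Hoxb2, Hoxc11, Hoxd3 and Hoxd10.

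In set 1 limma called 0 of 11905 genes (0%), with 721 at an unadjusted p under 0.05 and 1 called once the replicate number was a block. Of 32 Hox genes 0 were called with or without the block, and without it 1 had an unadjusted p under 0.05. This was Hoxd10, a gene of the lumbar motor column and the limb, which stood at 2.02, 1.78, 1.81 and 2.19 TPM in W1 to W4, 0.884, 1.07, 1.47 and 1.93 in M1 to M4, 1.78 and 2.87 in W5 and W6, and 1.38, 1.12 and 4.83 in M5 to M7. The genotypes overlapped in set 1, and the log2 difference was −0.35 (SE 0.15, adjusted p = 0.812); M1 and M2 were the lowest cultures, and without them the difference was −0.13. In set 2, limma called 1 of 12060 genes (0.00829%), with 781 at an unadjusted p under 0.05. Of 31 Hox genes 0 were called, with 3 at an unadjusted p under 0.05 (Hoxb3, Hoxc5 and Hoxc10). Hoxb3 had the smallest p among them and stood at 12.6, 12.4, 12.7 and 9.57 TPM in W1 to W4, 11.5, 10.8, 11.5 and 11.99 in M1 to M4, 9.75 and 9.95 in W5 and W6, and 12.3, 12.8 and 12.2 in M5 to M7. In set 2 the 3 mutant cultures lay above both WT cultures, with a log2 difference of 0.30 (SE 0.086, adjusted p = 0.672), while in set 1 the genotypes overlapped. The set by genotype interaction called 0 of 11942 genes (0%; 691 at an unadjusted p under 0.05) and 0 Hox genes, and Hoxb3 again had the smallest p, at 0.34 (SE 0.13, adjusted p = 0.851).

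The 8 Hox genes under the filter over both sets were fitted there with no filter on low TPM, over 17124 genes. In that fit limma called 0 of them for genotype or set, with 1 (Hoxb13) at an unadjusted p under 0.05 in each. Over all genes the fit called 0 for genotype, with 1102 at an unadjusted p under 0.05. The share of all genes called for set in this fit is not given here. The lack of calls in genes this low is therefore not read as stability. For genotype Hoxd13 had a log2 difference of −0.82 (SE 0.49, adjusted p = 0.874) and Hoxa13 of −0.45 (SE 0.21, adjusted p = 0.797). Of the 4 cultures high in Hoxd13, 3 were WT and 1 was G234D/G234D.

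Partners and chromatin regulators of Hox genes were taken from lists chosen for their roles, and nearly all were on. All 11 listed TALE homeodomain genes were at 1 TPM or more in every culture. Among them are the Pbx and Meis genes, whose proteins bind DNA with Hox proteins. The highest were Tgif1 (mean 42.1 TPM), of the same TALE class, and Meis3 (mean 35.6 TPM). Of the 27 Polycomb genes, which keep Hox genes silent, 26 were on in every culture and Cbx7 in 7 of 13, led by Phc2 (mean 70.5 TPM), Cbx6 (mean 60.7 TPM) and Eed (mean 48.6 TPM). All 14 Trithorax genes and H3K27 demethylases, which keep them active, were on, led by Psip1 (mean 59.1 TPM), Hcfc1 (mean 58.0 TPM) and Men1 (mean 52.3 TPM). For genotype over both sets limma called 0 genes of these lists, with 1 TALE gene, 0 Polycomb genes and 1 Trithorax gene at an unadjusted p under 0.05.

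Between the sets, 3 of 11 TALE genes were called (1 higher, 2 lower), 11 of 27 Polycomb genes (7 higher, 4 lower) and 8 of 14 Trithorax genes (1 higher, 7 lower), to be read against the 39.3% of all genes. Without M1 and M2 the calls held for 3, 9 and 7 of these, Men1 being one that was lost (adjusted p = 0.114). Meis3 rose by 0.30, and Tgif1 fell by 0.22 and Pbx3 by 0.19 on the log2 scale. Of the Polycomb genes Phf1 rose by 0.40, Cbx6 by 0.36, Pcgf2 by 0.21 and Pcgf1 by 0.33. Phc3 fell by 0.34, Suz12, a subunit of the H3K27 methyltransferase complex, by 0.29, Pcgf3 by 0.25 and Pcgf5 by 0.31. The H3K4 methyltransferase genes Kmt2a and Kmt2c fell by 0.65 and 0.65, the H3K36 methyltransferase gene Ash1l by 0.64 and Hcfc1, which encodes a partner of the H3K4 methyltransferases, by 0.40, while Men1 rose by 0.14. Each of these was called by limma at an adjusted p under 0.05.

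Of 21 upstream axial regulators, which set Hox domains in the embryo, 10 were under 1 TPM in every culture, and Cdx2, Cdx4 and T were listed at 0 in all 13. The retinoic acid receptor genes Rarg (mean 80.8 TPM) and Rara (mean 35.7 TPM) and the receptor gene Acvr2a (mean 51.6 TPM) were the highest. Between the sets 4 of 11 tested were called (36.4%, against 39.3% of all genes). Among them Rara rose by 0.27, and Gli3 fell by 0.28 and Tgfbr1 by 0.23. Between higher and lower title numbers 4 of 11 were called as well, against 7.14% of all genes, and 1 of them (Cyp26b1) without M1 and M2. Among them Cyp26b1, which encodes an enzyme that breaks down retinoic acid, rose by 1.26 and Egr2 by 0.64, and Gdf11, a ligand that promotes 5′ Hox expression in the embryo, fell by 0.49. In that comparison limma called 0 TALE and 0 Trithorax genes (7 and 0 at an unadjusted p under 0.05) and 2 of 27 Polycomb genes (7.41%, near the share of all genes), of which Ring1 rose by 0.33 and Eed fell by 0.19, and 0 of these without M1 and M2.

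Positional factors outside the Hox clusters were led by Irx1 (mean 135 TPM), Tbx15 (mean 119 TPM), known from the dermis of the trunk, and Shox2 (mean 52.0 TPM). Of the 35 listed, 20 were on in every culture and 4 (Lmx1b, Lhx2, Barx2 and Pax9) were under 1 TPM in all. Between the sets 7 of 27 tested were called (25.9%, under the 39.3% of all genes), 6 of them higher, among them Irx3 by 0.61, Irx5 by 0.47, Irx1 by 0.29 and En1 by 0.27, and Emx2 fell by 0.29. Between title numbers Hand2 fell by 0.70 and Pax3, also a gene of muscle and melanocyte precursors, by 0.96. Neither was called without M1 and M2, where the differences were −0.44 (adjusted p = 0.311) and −0.46 (adjusted p = 0.312). Pax3 was at 10.95 and 10.96 TPM in M2 and M1, the cultures with raised Schwann cell and muscle markers, and at 1.81 to 7.51 TPM in the others. Of the genes that flank the clusters 7 were on and tested, and between the sets Cbx5 beside Hoxc fell by 0.45, Lnpk beside Hoxd fell by 0.13 and Calcoco1 beside Hoxc rose by 0.26. Of the 28 noncoding and neighbouring genes listed, 12 had values, and no noncoding RNA or miRNA was among them. The listed noncoding RNAs and miRNAs of the clusters could therefore not be analysed here.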

How the data were processed

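Per the labels' protocols, column-purified total RNA of the 13 cultures went into libraries made with a kit that marks strand. The build is mm10, per the submitters' processing notes; the aligner, the counter, its strand setting and the annotation were not given in the sources used here. Per the file headers the deposited values are TPM, and they sum to 1000000 in each library. The depth behind them is therefore unknown, and no counting interval is given. Overlap, coordinates and homeobox sequences came from GENCODE M21 (mm10) and promoter windows from RefSeq (GRCm38.p6).

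Groups follow the genotype labels and the series' design text. Genes that reached 1 TPM in 6 libraries (4 within set 1, 2 within set 2) were tested on log2(TPM + 1) with limma 3.58.1 in R 4.3.3 (trend, robust), with Benjamini-Hochberg adjustment over all genes and a threshold of 0.05. A fold on this scale understates changes of genes near 1 TPM. The models were tested on simulated data. Genotype was tested over both sets with set as a term, within each set and as an interaction; set and title number were tested with genotype as a term. Alternatives were no filter or 10 TPM, a pseudocount of 0.1, no robust step, quantile normalization, each culture left out, and blocks for replicate or title number; leaving out M1 and M2, or W2, W4, W6 and M3, was chosen after seeing the data.

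The members and lists were chosen with earlier results of these data known. Values in every culture are given for the 4 highest genes of each cluster, its most 5′ gene on throughout, called members (up to 6 per comparison) and the member with the smallest p for genotype; of other lists, the called genes (up to 4 per direction) and the 3 highest. Other genes were named after their values were seen. For 1 Hox gene and a few listed genes no value of their own is reported here, and the figures of single genes leave that Hox gene out; all counts and sums include them. Deviations from the group mean correlated between WT and mutant cultures of the same replicate number at 0.314, 0.236, 0.244 and 0.214 in set 1, each above 0.1. In set 2 they correlated at −0.155 and 0.0138, so the replicate block was taken as apt in set 1 only. There, among the WT cultures, W1 was the most like both M1 and M2, and W3 the most like both M3 and M4. Pairs by number can therefore not be told from likeness within the title number groups.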

Additional observations from a re-analysis of the deposited data

Results flagged for a closer look

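Within groups of 4 cultures, 6 of 80 sets of values had 1 culture far from the others. Chance gives such a gap in about 1 in 20 sets of independent, normally spread values. The genes looked at were the Hox genes with Tbx4 and Pitx1, which share the 4 highest cultures of Hoxd13, M3 among them. Their flags are therefore not independent, and values listed at 0 are not normally spread, so the rate is a rough guide only. Of the 6, 4 were M3 of the mutant cultures of set 1. Hoxd13 was at 2.68 TPM in M3 and at most 0.124 TPM in M1, M2 and M4. Hoxd12 was at 0.430 TPM and Hoxa13 at 0.403 TPM in M3, and both were listed at 0 in the other 3. Tbx4 was at 2.38 TPM in M3, and the next culture was at 0.242 TPM. The other 2 were WT cultures of set 1. Hoxa3 was at 3.42 TPM in W1, where the next culture was at 1.57 TPM. Hoxb3 was low in W4, at 9.57 TPM, where the next culture was at 12.4 TPM.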

How the results depend on the processing

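For genotype 0 Hox genes were called under every alternative run, over both sets, in set 1, in set 2 and as an interaction. Over all genes the calls moved as follows. For genotype in set 1 they were 1 with the replicate block, 1 with title number as a block, 32 without M1 and M2 (chosen after seeing the data) and 0 to 2 with each culture left out, against 0. For genotype in set 2 they were 0 without a filter, 0 at 10 TPM, 21 with the replicate block (whose numbers did not pair the cultures there) and 0 to 14 with each culture left out, against 1. For the interaction they were 1 with title number as a block, 29 without M1 and M2 and 0 to 1 with each culture left out. The block changed no Hox call. For set 2 minus set 1, and for title numbers, no replicate block was run, because the numbers are not shared across those groups. Hox calls for set 2 minus set 1 were 5 at 10 TPM, where 15 Hox genes were tested, and 5 to 9 with each culture left out, against 8. For title numbers the calls over all genes were 269 without a filter, 15 without M1 and M2 and 36 to 855 with each culture left out, against 850. The Hox calls there were 0 without a filter, 0 at 10 TPM, 2 after quantile normalization (Hoxd8 and Hoxc11), 0 without M1 and M2 and 0 to 5 with each culture left out, against 4, and the cause was not tested. The count of Hox genes on in every culture was 14 at 5 TPM. Depth is unknown, so levels near 0 TPM cannot be told from absence.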

Other observations

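The 12 genes outside the Hox family with W2, W4, M3 and W6 as their 4 highest cultures were Tbx4, Pitx1, Isl1, Isl2, Sall1, Sim1, Foxq1, Lxn, Rxfp1, Papss1, Ndp and Gm6710, named after their values were seen. In 9 of the 17 genes, Hox genes included, all 4 cultures were at 1 TPM or more. The gap between these cultures and the rest was wide for few. Isl1, a LIM homeodomain gene known from the hindlimb field and motor neurons, was at 2.00 TPM or more in the 4 and at 1.36 TPM or less in the other 9. Lxn was at 94.6 TPM or more in the 4 and at 90.7 TPM or less in the others, and Papss1 at 70.0 and 69.4 TPM. The summed level of groups 11 to 13 ran from 9.53 TPM in M1 to 32.3 TPM in W4.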
